A study of Mus musculus with 35 samples.

Results

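Glycolysis and hypoxia-response genes were followed in NMuMG cells, a line of normal mouse mammary gland epithelium, over a week in culture with the solvent DMSO or with an inhibitor of the stress kinase JNK. The set was a list of 34 gene symbols, taken by name and not by any measured value. Of these, 33 were rows of the deposited table of 20261 genes, and all 33 were among the 13896 genes with a mean of at least 10 normalized reads in at least 1 group, which were the genes tested. The symbol Pkm was absent, and Pkm2, the older name of the same pyruvate kinase gene, carried its values. By role, 3 members move glucose or lactate across the membrane, 9 belong to the upper and 8 to the lower part of glycolysis, 3 are regulators of the pathway, and 10 belong to the response to low oxygen.

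Glycolysis splits glucose into pyruvate, and in growing epithelial cells much of that pyruvate leaves as lactate. When oxygen is short, the prolyl hydroxylases of the Egln family stop marking the HIF alpha proteins for destruction, and HIF then raises transcription of nearly every step from glucose uptake to lactate export together with genes for mitophagy, pH balance and protein folding. Many of these genes also answer to growth factors, to the collagen load of a cell and to its mesenchymal state, so they need not move together.

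RNA was sequenced from 20 libraries of this experiment, 2 in each of 10 groups, at 24, 48, 72 and 96 h and at 7 d in both arms. All came from wild-type cells labelled as strain E9, and the labels give the DMSO arm and the JNKi arm without naming the compound. The treatment protocol printed with every sample gives TGF-β at 2 ng/ml, renewed with the medium every 2 d, for time course experiments. The labels of these 20 libraries name only DMSO or JNKi as the treatment, so that TGF-β in both arms rests on that protocol, and no arm without it is described among them. Whether the 2 libraries of a group stem from separate cultures is not said, so the p-values reflect the spread between libraries alone, and that spread may be technical.

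All values below are normalized reads, that is, reads per gene scaled to the library by the authors. The levels are not per length and are not compared between genes. Changes are differences of mean log2(normalized reads + 1), a scale that understates the change of low genes, with the standard error (SE) of limma's fit over all 20 libraries and p-values adjusted by Benjamini-Hochberg over the 13896 genes. A gene is said to have risen or fallen only where its adjusted p was below 0.05.

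The libraries held between 9492324 and 48584027 reads. The first JNKi library at 7 d was the shallowest and stood apart in the gene Lars2, at 1.59% of its reads against 0.17% in its partner. The first DMSO library at 7 d was the next shallowest, with 16652275 reads. In the other groups 7 (DMSO at 96 h and JNKi at 72 h) to 25 (JNKi at 24 h) of the 33 members read lower in the first library than in the second. In the first DMSO library at 7 d 26 of the 33 read lower than in its partner, by a median of 0.25 on the log2 scale. The median over all genes tested differed by -0.001 there. Without these 2 libraries Pgam1, at -0.45 (adjusted p = 0.087), Ldhb, at -1.03 (adjusted p = 0.31), and Pdk1, at -0.62 (adjusted p = 0.063), lost their calls at 7 d against 24 h in DMSO, and no other member did. Of the 6 mammary epithelial markers Epcam was at 0 in every library to 96 h but 1, at 0.6, and read 11.8 and 8.1 in DMSO and 11.1 and 12.6 in JNKi at 7 d, and Cldn3 read at most 2.4 in any library. The epithelial sum, most of it Krt8 and Krt18, went in DMSO from 310009 and 328418 normalized reads at 24 h to 127252 and 161421 at 7 d, where it was 93587 and 100620 in JNKi. The sum over 5 markers of the mesenchymal state went in DMSO from 132497 and 152464 at 24 h to 406940 and 470498 at 7 d, where it was 203622 and 221146 in JNKi. The sum over 6 leukocyte markers was 14.4 and 15.4 at 24 h and 64.9 and 70.7 at 7 d in DMSO, with 91.5 and 109.9 in JNKi at 7 d; no marker of that list was at 0 in every library. The sum over 5 endothelial markers went from 60.5 and 91.3 at 24 h to 360.3 and 442.8 at 7 d in DMSO, with 542.5 and 557.2 in JNKi at 7 d. The sum over 3 adipocyte markers was 0 and 1.4 at 24 h and 5.1 and 5.5 at 7 d in DMSO, with 11.9 and 22.2 in JNKi at 7 d. The leukocyte, endothelial and adipocyte sums thus all read higher at 7 d than at 24 h. The endothelial sum in DMSO was already 238.4 and 423 at 96 h. Single markers did not all follow: in DMSO the endothelial Vwf read 105.1 and 212.8 at 96 h and 94.3 and 60.8 at 7 d. The leukocyte marker Cd79a did not pass at 7 d against 24 h (adjusted p = 0.55, limma). Whether such cells were present, and their part in the results, was not tested. In bulk RNA, fewer cells of a type and less RNA per cell cannot be told apart.

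The stretch of 250 bases before the transcription start is shown for 6 members, because HIF and several other factors are known to bind a core of ACGTG there and because these members moved in opposite ways. The sequences are from RefSeq on the mouse build GRCm38.p6, printed 5′ to 3′ on the gene's strand, with every ACGTG, read on either strand, in capitals. Ldha and Pgk1 fell over the week, Hk2, Ero1l and P4ha1 rose, and Egln3 was higher with JNKi. Ldha lies at chr7:46845554-46845803 on the plus strand, Pgk1 at chrX:106186850-106187099 on the plus strand, and Hk2 at chr6:82774455-82774704 on the minus strand. Ero1l, which RefSeq calls Ero1a, lies at chr14:45318573-45318822 on the minus strand, P4ha1 at chr10:59323046-59323295 on the plus strand and Egln3 at chr12:54203875-54204124 on the minus strand.
Ldha: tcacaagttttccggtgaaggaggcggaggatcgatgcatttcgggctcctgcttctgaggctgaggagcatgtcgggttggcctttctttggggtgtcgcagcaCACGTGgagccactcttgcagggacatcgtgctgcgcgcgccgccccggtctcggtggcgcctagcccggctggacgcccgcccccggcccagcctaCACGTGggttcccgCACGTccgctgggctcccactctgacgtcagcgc
Pgk1: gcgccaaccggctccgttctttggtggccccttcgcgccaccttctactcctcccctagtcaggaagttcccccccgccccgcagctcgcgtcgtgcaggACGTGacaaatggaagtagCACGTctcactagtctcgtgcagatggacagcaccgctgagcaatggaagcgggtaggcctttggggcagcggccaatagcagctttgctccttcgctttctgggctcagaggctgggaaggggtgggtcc
Hk2: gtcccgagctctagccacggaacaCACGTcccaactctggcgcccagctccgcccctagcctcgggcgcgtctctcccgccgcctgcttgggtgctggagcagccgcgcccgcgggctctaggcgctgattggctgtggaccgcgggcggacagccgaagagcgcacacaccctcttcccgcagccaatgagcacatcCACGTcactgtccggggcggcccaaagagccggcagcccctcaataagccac
Ero1l: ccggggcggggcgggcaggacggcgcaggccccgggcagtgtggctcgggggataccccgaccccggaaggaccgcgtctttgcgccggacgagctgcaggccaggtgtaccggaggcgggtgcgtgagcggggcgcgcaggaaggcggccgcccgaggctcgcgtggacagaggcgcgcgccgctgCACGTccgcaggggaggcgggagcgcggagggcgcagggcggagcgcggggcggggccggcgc
P4ha1: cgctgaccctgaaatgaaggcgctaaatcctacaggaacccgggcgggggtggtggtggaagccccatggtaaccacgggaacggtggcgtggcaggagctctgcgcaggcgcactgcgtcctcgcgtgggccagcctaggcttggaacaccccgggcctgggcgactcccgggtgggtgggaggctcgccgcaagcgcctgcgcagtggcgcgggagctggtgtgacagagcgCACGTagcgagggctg
Egln3: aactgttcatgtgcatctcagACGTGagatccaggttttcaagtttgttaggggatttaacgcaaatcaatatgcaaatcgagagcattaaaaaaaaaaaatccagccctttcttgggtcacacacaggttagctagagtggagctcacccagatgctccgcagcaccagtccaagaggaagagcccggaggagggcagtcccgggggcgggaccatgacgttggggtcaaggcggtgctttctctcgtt

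In these windows Ldha held the core at 3 places, Pgk1 and Hk2 at 2 places each, and Ero1l, P4ha1 and Egln3 at 1 place each. Members that fell and members that rose thus both held it. Promoters from 250 bases before to 50 bases after the start were found in RefSeq for 31 of the 33 members. ACGTG, on either strand, stood in at least 1 promoter of 22 of these 31 genes (71%), and in 21.8% of all 27025 genes with a promoter in the same table. Counted by promoter it stood in 56.8% of 44 member promoters and in 19.6% of all 32851. All these genes are not the genes tested here, and a gene with more promoters can match more often. The related core GCGTG stood in 64.5% of the member genes and in 35.2% of all genes. The palindrome CACGTG, which contains ACGTG on both strands, stood in 19.4% of the member genes and in 8.09% of all genes. A match is a description of the letters and not a site that was measured.

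Over the first 4 d in DMSO most glycolytic enzymes fell and a few named genes went the other way. At 96 h against 24 h, 19 of the 33 members were lower and 6 were higher, where 30.5% of all genes tested were lower and 32.7% higher. The median change of the 33 was -0.66 on the log2 scale and that of all genes tested was 0.07. Among the 17 enzymes of the glycolytic chain 14 fell, Hk2 and Eno2 rose, and Pfkp did not pass the test. Ldhb, among the 14, was tested only through its DMSO mean at 24 h. At 7 d against 24 h the counts were again 19 lower and 6 higher, against a background of 28.0% and 32.0%, and the median change of the members was -0.65 beside 0.06 for all genes tested. These comparisons share the 24 h libraries. Without the 2 shallow libraries at 7 d, 17 members were lower and 6 higher.

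**Figure D1:**
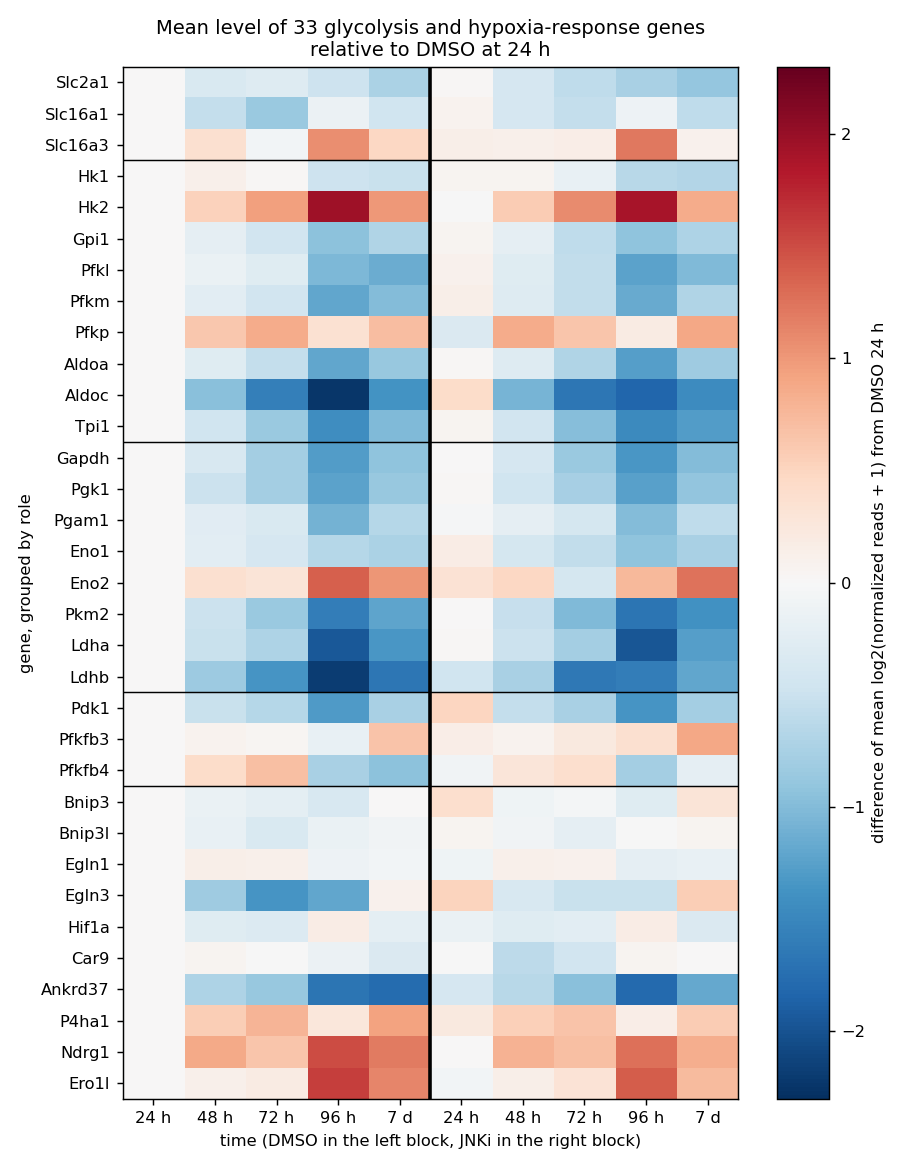
Difference of the mean log2(normalized reads + 1) of each of 33 members from its DMSO mean at 24 h, in 5 times of DMSO (left block) and 5 of JNKi (right block), with lines between the roles. Most glycolytic enzymes are lower from 72 h on and lowest at 96 h in both blocks, while Hk2, Ndrg1 and Ero1l are higher and reach their highest means at 96 h.

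The transporters did not move as one. Slc2a1 encodes GLUT1, the widely expressed glucose carrier of the cell surface. Slc2a1 read 5247 and 6599.6 after 24 h, 4289.6 and 4964 after 48 h, 4979 and 4615 after 72 h, 4649.8 and 3828 after 96 h and 3747 and 3386 after 7 d in DMSO. Slc2a1 under JNKi read 5106 and 7049 after 24 h, 4084 and 4931 after 48 h, 4270.1 and 3633 after 72 h, 3577 and 3421 after 96 h and 3119 and 3213 after 7 d. Both libraries at 96 h and at 7 d lay under both at 24 h, and the gene fell by 0.48 at 96 h (SE 0.15, adjusted p = 0.0096) and by 0.72 at 7 d (adjusted p = 0.00054). The 96 h call was lost without the second DMSO library at 24 h, at -0.31 (adjusted p = 0.14), or the second at 96 h, at -0.34 (adjusted p = 0.12).

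Slc16a3 encodes MCT4, the exporter of lactate that low oxygen raises, and was read at low level throughout. Slc16a3 read 21.1 and 34.6 after 24 h, 36.2 and 34.2 after 48 h, 24 and 28.1 after 72 h, 50.2 and 66.5 after 96 h and 37 and 39.2 after 7 d in DMSO. Slc16a3 under JNKi read 32.6 and 27.2 after 24 h, 27.7 and 31.1 after 48 h, 26.9 and 33.8 after 72 h, 49.3 and 82.4 after 96 h and 22.2 and 37.8 after 7 d. The highest values of both arms stood at 96 h, where the gene was higher than at 24 h in DMSO (log2 change 1.07, SE 0.32, adjusted p = 0.008). That call was lost without the first DMSO library at 24 h, at 0.72 (adjusted p = 0.11), or the second at 96 h, at 0.87 (adjusted p = 0.077). At 7 d the difference from 24 h was 0.48 and did not pass (adjusted p = 0.21). Slc16a1, the monocarboxylate carrier MCT1, ranged from 1846 to 3522 normalized reads in DMSO and from 2254 to 3932 in JNKi. It was lower than at 24 h at 48 h (log2 change -0.55, SE 0.10, adjusted p = 0.00094), rose from 72 h to 96 h (log2 change 0.72, SE 0.10, adjusted p = 5.7e-05) and was lower again at 7 d than at 24 h (-0.46, adjusted p = 0.0012), which was -0.29 (adjusted p = 0.029) without the second DMSO library at 7 d.

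Of the 9 genes of the upper part, from hexokinase to triosephosphate isomerase, 7 fell and only Hk2 rose by 96 h, and at 7 d 7 were lower and Hk2 and Pfkp higher. For all genes tested the shares were 30.5% lower and 32.7% higher at 96 h, and 28.0% and 32.0% at 7 d. Hexokinase traps glucose in the cell as glucose 6-phosphate; Hk1 is its broadly expressed form and Hk2 its inducible form. Hk2 read 3384 and 3425 after 24 h, 4614 and 5229 after 48 h, 7249 and 5854 after 72 h, 12531 and 13811 after 96 h and 8124 and 5744 after 7 d in DMSO. Hk2 under JNKi read 3317 and 3446 after 24 h, 4361 and 5905 after 48 h, 7692 and 6794 after 72 h, 13148 and 12165 after 96 h and 6089 and 6239.7 after 7 d. It was higher than at 24 h at each later time, without overlap, and reached its highest values at 96 h in both arms. The log2 change at 96 h was 1.95, SE 0.15, adjusted p = 1.7e-08, a 3.86-fold rise, and the gene then fell by 0.95 to 7 d (adjusted p = 0.00021), where it stood at 1.00 above 24 h (adjusted p = 3.2e-05).

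Hk1 read 5452 and 4862 after 24 h, 5168 and 5972 after 48 h, 5439 and 5036 after 72 h, 3868 and 3548 after 96 h and 3351 and 3910 after 7 d in DMSO. Hk1 under JNKi read 5445 and 5359 after 24 h, 4883 and 5948 after 48 h, 4892 and 4232 after 72 h, 3502 and 3149.9 after 96 h and 3291 and 3152 after 7 d. Its values overlapped those of 24 h at 48 h and at 72 h in DMSO, and lay below them at 96 h (-0.47, adjusted p = 0.0014) and at 7 d (-0.51, adjusted p = 0.00096). The ratio of Hk2 to Hk1 reads within a library, which is not per length and is read here only for its change, was 0.621 and 0.704 at 24 h and 3.24 and 3.89 at 96 h in DMSO. At 7 d it was 2.42 and 1.47.

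Aldolase and phosphofructokinase, the committed step of the pathway, each have several genes in the list. Pfkl, the liver form, read 4048 and 3929.7 after 24 h, 3613 and 3555 after 48 h, 3273 and 3315 after 72 h, 2126 and 1778 after 96 h and 1459 and 2212 after 7 d in DMSO. Pfkl under JNKi read 4066 and 4536 after 24 h, 3094 and 3464 after 48 h, 2833 and 2538 after 72 h, 1667 and 1710 after 96 h and 2102 and 1869 after 7 d. It read lower at each later time to 96 h without overlap, with the step from 72 h to 96 h past the test (a fall by 0.76, adjusted p = 0.00051), and was -1.15 from 24 h at 7 d (adjusted p = 3.9e-06). Pfkm, the muscle form, read 6029.5 and 5729 after 24 h, 4664 and 5304 after 48 h, 4296 and 4338 after 72 h, 2934 and 2234 after 96 h and 2415 and 3588 after 7 d in DMSO. Pfkm under JNKi read 6402 and 6486 after 24 h, 4565 and 5007 after 48 h, 4041 and 3925 after 72 h, 2798 and 2473 after 96 h and 3688 and 3585 after 7 d. The change at 96 h was -1.20, SE 0.14, adjusted p = 2.1e-06 and at 7 d the gene had fallen by 1.00 (adjusted p = 2.2e-05). Pfkp, the platelet form, ranged from 87.9 to 175 normalized reads in DMSO and from 69.7 to 211 in JNKi, and went the other way. It was higher than at 24 h at 7 d in DMSO (log2 change 0.72, SE 0.21, adjusted p = 0.0087), a call lost without the second DMSO library at 24 h, at 0.63 (adjusted p = 0.063), or the second at 7 d, at 0.64 (adjusted p = 0.056).

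Aldoa, the main aldolase of most tissues, read 26039 and 28053 after 24 h, 22015 and 22831 after 48 h, 19337 and 17516 after 72 h, 12712 and 10878 after 96 h and 12475 and 17378 after 7 d in DMSO. Aldoa under JNKi read 25098 and 30312 after 24 h, 20712 and 23495 after 48 h, 17464 and 15886 after 72 h, 11164 and 11310.2 after 96 h and 15228 and 15338 after 7 d. It was lower at each time from 48 h to 96 h than at the one before, without overlap, and the change at 96 h was -1.20, SE 0.13, adjusted p = 8.4e-07. Aldoc, the aldolase best known from brain, read 544 and 395 after 24 h, 234 and 239 after 48 h, 159.7 and 150.4 after 72 h, 125 and 76.3 after 96 h and 159.9 and 200.1 after 7 d in DMSO. Aldoc under JNKi read 632 and 617 after 24 h, 251 and 195 after 48 h, 172 and 122 after 72 h, 157 and 108 after 96 h and 178 and 163 after 7 d. Its change at 96 h, -2.23, SE 0.24, adjusted p = 6.7e-07, had the lowest value of the 33 members in that comparison, and at 7 d it was -1.37 from 24 h (adjusted p = 0.00015). Tpi1, which interconverts the triose phosphates that aldolase makes, read 19190.3 and 20896 after 24 h, 14494 and 14749.9 after 48 h, 12131 and 10026 after 72 h, 7807 and 7061 after 96 h and 8572 and 11539.5 after 7 d in DMSO. Tpi1 under JNKi read 18868 and 23201 after 24 h, 14171 and 15224 after 48 h, 11110.4 and 9307 after 72 h, 6966 and 7615 after 96 h and 8415 and 7998 after 7 d. It fell by 1.43 to 96 h (adjusted p = 1.5e-07) and at 7 d was -1.01 from 24 h (adjusted p = 1.1e-05). Gpi1, the isomerase between hexokinase and phosphofructokinase, ranged from 6109 to 12821 in DMSO and from 6522 to 13857 in JNKi, with a change at 96 h of -0.94 (adjusted p = 9.9e-07) and at 7 d of -0.70 (adjusted p = 3.4e-05).

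In the lower part, from glyceraldehyde 3-phosphate to lactate, 7 of 8 members were lower at 96 h than at 24 h and 7 of 8 at 7 d. The shares of all genes tested that were lower were 30.5% and 28.0%. Both counts include Ldhb and Pgam1, whose 7 d calls were lost with some libraries left out. Ldha, the lactate dehydrogenase subunit that favours lactate, was among the members that fell most. Ldha read 33988 and 43386 after 24 h, 25982 and 27605 after 48 h, 24718 and 22394 after 72 h, 11034 and 8986 after 96 h and 11976 and 19040.5 after 7 d in DMSO. Ldha under JNKi read 33352 and 45557 after 24 h, 24906 and 29701 after 48 h, 24531 and 20550 after 72 h, 9854 and 9694 after 96 h and 16234 and 15618 after 7 d. The libraries at 96 h were the lowest of each arm and did not overlap those of any other time. The log2 change at 96 h was -1.95, SE 0.19, adjusted p = 1.9e-07, a 3.86-fold fall, and most of it came between 72 h and 96 h (-1.24, adjusted p = 9.6e-05). At 7 d the gene was -1.35 from 24 h (adjusted p = 1.6e-05), with the 2 DMSO libraries far apart.

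Ldhb, the subunit that favours pyruvate, was read near the limit of detection. Ldhb read 16.9 and 8.6 after 24 h, 9.3 and 4.3 after 48 h, 6.3 and 2.6 after 72 h, 2 and 1.8 after 96 h and 1.7 and 5.4 after 7 d in DMSO. Ldhb under JNKi read 9 and 8 after 24 h, 12.1 and 3.7 after 48 h, 5.7 and 1.6 after 72 h, 1.9 and 5.5 after 96 h and 2.8 and 7.7 after 7 d. The libraries at 96 h held 3 and 2 reads and those at 24 h 12 and 6. The change at 96 h was -2.18, SE 0.69, adjusted p = 0.011. Its call at 7 d (-1.66, adjusted p = 0.046) was lost with 6 of the libraries left out in turn: without the first DMSO library at 7 d, at -1.03 (adjusted p = 0.32), the second at 24 h, at -2.11 (adjusted p = 0.051), either at 96 h, at -1.66 (adjusted p = 0.054), or either JNKi library at 24 h, at -1.66 (adjusted p = 0.053).

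Gapdh, often used as a loading control, read 10344 and 11051 after 24 h, 8304 and 8250.4 after 48 h, 6989 and 5594 after 72 h, 4649 and 4108 after 96 h and 4990.5 and 6330.4 after 7 d in DMSO. Gapdh under JNKi read 9803 and 11829 after 24 h, 7840.2 and 8633 after 48 h, 6370.5 and 5509 after 72 h, 4108 and 4333 after 96 h and 5362 and 5391 after 7 d. It was lower at 96 h than at 24 h without overlap (log2 change -1.29, SE 0.12, adjusted p = 2.0e-07) and -0.93 from 24 h at 7 d (adjusted p = 1.1e-05). Pgk1, the first step of the lower part that makes ATP, read 28070 and 33299 after 24 h, 21223 and 22188 after 48 h, 18595 and 17143 after 72 h, 13905 and 12169 after 96 h and 15175 and 18622 after 7 d in DMSO. Pgk1 under JNKi read 27921 and 34947 after 24 h, 21162 and 23569 after 48 h, 19514 and 16462 after 72 h, 13122 and 12615 after 96 h and 16706 and 15937 after 7 d. The change was -1.23, SE 0.13, adjusted p = 4.3e-07 at 96 h and -0.86 at 7 d (adjusted p = 3.0e-05). Pkm2, the pyruvate kinase that makes the last ATP of the chain, read 90518 and 96706 after 24 h, 65145 and 67465 after 48 h, 56531 and 47956 after 72 h, 33672 and 28324 after 96 h and 35272 and 46177 after 7 d in DMSO. Pkm2 under JNKi read 85464 and 103766 after 24 h, 60891 and 68127 after 48 h, 50451 and 42877 after 72 h, 29555 and 28603 after 96 h and 36586 and 35008 after 7 d. Its libraries lay lower at each time to 96 h than at the one before, without overlap, and it fell by 1.60 from 24 h to 96 h (SE 0.14, adjusted p = 7.5e-08), and was -1.21 from 24 h at 7 d (adjusted p = 2.6e-06).

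Pgam1, Gapdh and Eno1 have many near-identical copies in the mouse genome, so reads may have been shared or lost between copies and their levels are uncertain. Pgam1 read 331450.3 and 404314 after 24 h, 297321 and 313122 after 48 h, 308500.2 and 269754 after 72 h, 177508 and 166688 after 96 h and 203506 and 268348 after 7 d in DMSO. Pgam1 under JNKi read 323733 and 396480.2 after 24 h, 303203 and 334119 after 48 h, 299789 and 255239 after 72 h, 179107 and 189476 after 96 h and 249862 and 238584 after 7 d. The change at 96 h was -1.09, SE 0.18, adjusted p = 4.7e-05. The call at 7 d, -0.65 (adjusted p = 0.0047), was lost without the first DMSO library at 7 d, at -0.45 (adjusted p = 0.072), or the second at 24 h, at -0.50 (adjusted p = 0.063). Eno1 ranged from 998 to 2040 in DMSO and from 947 to 2170 in JNKi, and was lower than at 24 h at 96 h (-0.66, adjusted p = 0.00071) and at 7 d (-0.73, adjusted p = 0.00037). Eno2, the neuronal enolase, was read at low level, with 4 and 2 reads in the DMSO libraries at 24 h. Eno2 read 5.6 and 2.9 after 24 h, 7 and 4.3 after 48 h, 3.8 and 7 after 72 h, 12.7 and 11.5 after 96 h and 8.4 and 10.1 after 7 d in DMSO. Eno2 under JNKi read 4.5 and 6.4 after 24 h, 3.5 and 10 after 48 h, 3.3 and 2.4 after 72 h, 10.1 and 5.5 after 96 h and 8.3 and 14.7 after 7 d. It was higher at 96 h in DMSO (1.37, adjusted p = 0.027), a call lost without the second DMSO library at 24 h, at 0.99 (adjusted p = 0.19), the first at 96 h, at 1.30 (adjusted p = 0.097), or the second at 96 h, at 1.43 (adjusted p = 0.072). Within DMSO the Eno2 mean reached the filter of 10 only at 96 h, so this call is in part set by the filter.

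**Figure D2:**
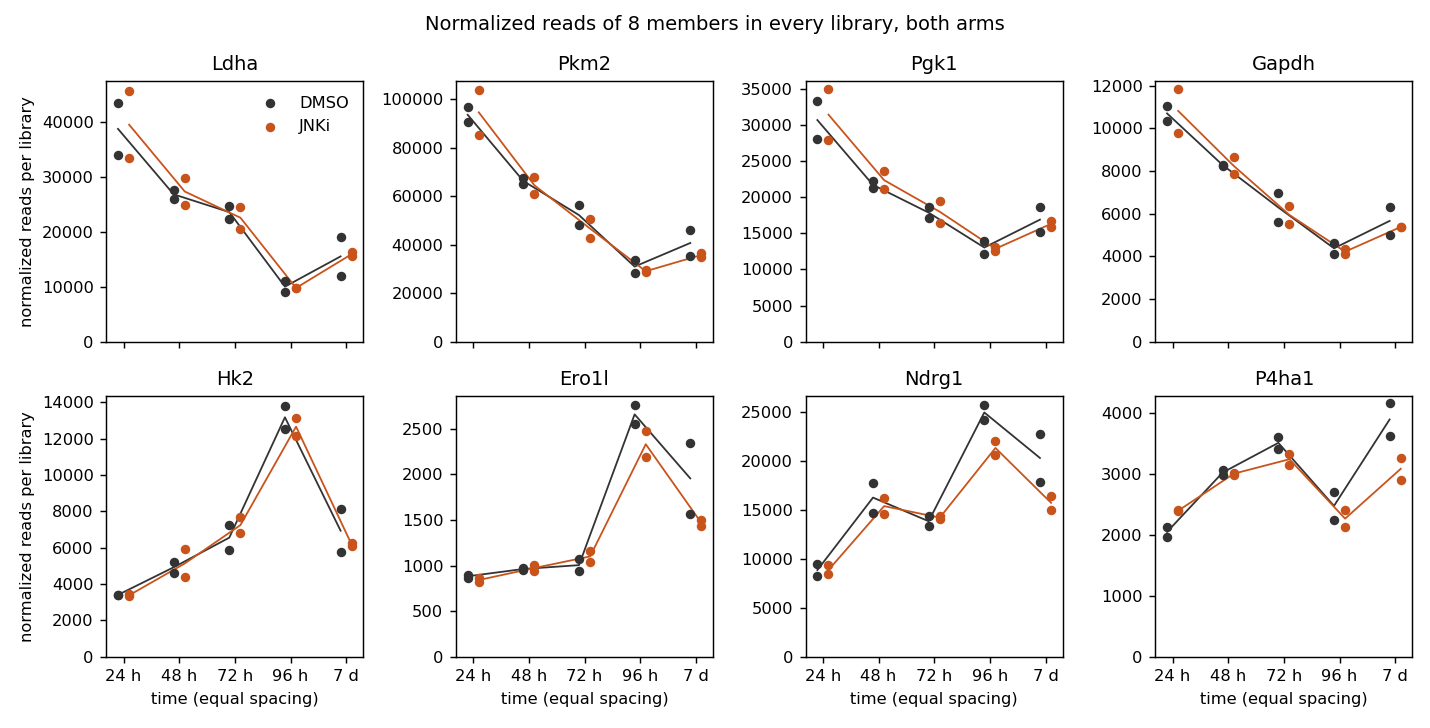
Normalized reads of 8 members (vertical axes from 0) in every library at 5 times, as points, with lines through the mean of each arm; times are spaced equally. Ldha, Pkm2, Pgk1 and Gapdh are lowest at 96 h, Hk2, Ero1l and Ndrg1 highest at 96 h, and P4ha1 is lower at 96 h than at 72 h and 7 d.

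The 3 regulators of the pathway behaved differently from each other. Pdk1 phosphorylates pyruvate dehydrogenase and so keeps pyruvate out of the mitochondrial cycle. Pdk1 read 787 and 649 after 24 h, 497 and 503 after 48 h, 479 and 430 after 72 h, 376 and 223 after 96 h and 390.5 and 463 after 7 d in DMSO. Pdk1 under JNKi read 970.4 and 1049.7 after 24 h, 514 and 464 after 48 h, 498 and 362 after 72 h, 308 and 249 after 96 h and 385 and 444 after 7 d. It fell by 1.30 to 96 h (SE 0.20, adjusted p = 3.3e-05), and its call at 7 d (-0.75, adjusted p = 0.0046) was lost without the first DMSO library at 7 d, at -0.62 (adjusted p = 0.052).

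Pfkfb3 and Pfkfb4 make and break fructose 2,6-bisphosphate, the activator of phosphofructokinase. Pfkfb3 read 1625 and 1346 after 24 h, 1529 and 1598 after 48 h, 1499.5 and 1544 after 72 h, 1210.5 and 1439 after 96 h and 2464 and 2191 after 7 d in DMSO. Pfkfb3 under JNKi read 1853 and 1475 after 24 h, 1641 and 1506 after 48 h, 1732 and 1744 after 72 h, 2048 and 1792 after 96 h and 2878 and 2604 after 7 d. In DMSO its values at 48, 72 and 96 h overlapped those at 24 h, and the gene rose from 96 h to 7 d (log2 change 0.82, SE 0.12, adjusted p = 0.00011). Pfkfb4 read 486 and 544 after 24 h, 578 and 818 after 48 h, 749 and 929 after 72 h, 256 and 364 after 96 h and 247 and 285 after 7 d in DMSO. Pfkfb4 under JNKi read 473 and 494 after 24 h, 499.7 and 775 after 48 h, 619 and 734 after 72 h, 311 and 287 after 96 h and 460.3 and 426 after 7 d. Its highest values stood at 72 h in DMSO, and from 72 h to 96 h it fell by 1.45 (SE 0.21, adjusted p = 5.3e-05). Against 24 h it was -0.75 at 96 h (adjusted p = 0.0044), which was -0.50 (adjusted p = 0.081) without the first DMSO library at 96 h, and -0.95 at 7 d (adjusted p = 0.00087). At 7 d Pfkfb3 had thus risen and Pfkfb4 fallen.

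The 10 genes of the hypoxia response did not move as one. By 96 h Ero1l, Ndrg1 and P4ha1 had risen, Ankrd37 and Egln3 had fallen, and Hif1a, Egln1, Bnip3, Bnip3l and Car9 had not passed the test. By 7 d the same 3 genes were higher and Ankrd37 was the only one lower. Among all genes tested 32.7% were higher and 30.5% lower at 96 h, and 32.0% and 28.0% at 7 d. The 3 of 10 higher were thus near the share of all genes. The number lower was 2 of 10 at 96 h and 1 of 10 at 7 d, which in so few genes is not read as a difference from that share. The median change of the 10 was -0.13 at 96 h.

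Ero1l, an oxidase that forms disulfide bonds in the endoplasmic reticulum, read 866 and 899.5 after 24 h, 949.9 and 976 after 48 h, 938 and 1072 after 72 h, 2555 and 2762 after 96 h and 2343 and 1570.1 after 7 d in DMSO. Ero1l under JNKi read 824 and 859.5 after 24 h, 1008 and 939 after 48 h, 1039 and 1162 after 72 h, 2190.4 and 2472 after 96 h and 1434 and 1501 after 7 d. The steps from 24 h to 48 h and from 48 h to 72 h did not pass. The gene then rose, by 1.41 from 72 h to 96 h (SE 0.13, adjusted p = 1.8e-06), to 1.59 above 24 h (adjusted p = 4.8e-08). At 7 d it was 1.12 above 24 h (adjusted p = 3.5e-06). Ndrg1, a stress gene that hypoxia raises in many cell types, read 9449 and 8293 after 24 h, 14752 and 17809 after 48 h, 14363 and 13362 after 72 h, 25784 and 24184 after 96 h and 22754 and 17909.8 after 7 d in DMSO. Ndrg1 under JNKi read 9336 and 8416 after 24 h, 14626 and 16189 after 48 h, 14046 and 14412 after 72 h, 20648 and 22066 after 96 h and 16442 and 15046 after 7 d. It rose in 2 steps, by 0.87 from 24 h to 48 h (adjusted p = 4.9e-05) and by 0.85 from 72 h to 96 h (adjusted p = 4.0e-05), and at 96 h stood 1.50 above 24 h (adjusted p = 2.0e-08).

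P4ha1, the catalytic subunit of the prolyl hydroxylase that lets collagen fold, read 2129 and 1972 after 24 h, 3070.1 and 2982 after 48 h, 3416 and 3610.3 after 72 h, 2714 and 2242 after 96 h and 3624 and 4171 after 7 d in DMSO. P4ha1 under JNKi read 2387 and 2409 after 24 h, 2989.8 and 3024 after 48 h, 3334 and 3154 after 72 h, 2414 and 2124 after 96 h and 2906 and 3269 after 7 d. It read higher at each time to 72 h, lower at 96 h than at 72 h and higher again at 7 d. The steps were 0.56 from 24 h to 48 h (adjusted p = 0.00051), -0.51 from 72 h to 96 h (adjusted p = 0.00076) and 0.66 from 96 h to 7 d (adjusted p = 0.00013). At 96 h it was 0.27 above 24 h (adjusted p = 0.026), a call lost without the second DMSO library at 24 h, at 0.21 (adjusted p = 0.15), or the first at 96 h, at 0.13 (adjusted p = 0.33), and 0.41 (adjusted p = 0.0055) without the second at 96 h. At 7 d it was 0.92 above 24 h (adjusted p = 9.7e-07).

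Ankrd37, an ankyrin repeat gene induced by HIF, read 145 and 124 after 24 h, 94.5 and 71.2 after 48 h, 66.9 and 80 after 72 h, 48.9 and 34.6 after 96 h and 35.3 and 42.6 after 7 d in DMSO. Ankrd37 under JNKi read 81 and 129 after 24 h, 79.5 and 93.3 after 48 h, 62.7 and 74.8 after 72 h, 39.8 and 36.5 after 96 h and 47.1 and 72.8 after 7 d. It was lower at 96 h (-1.68, SE 0.27, adjusted p = 5.2e-05) and at 7 d (-1.76, adjusted p = 4.6e-05) in DMSO, where the values at both times lay below those at 24 h. Egln3, the prolyl hydroxylase PHD3, which is itself raised by HIF, read 739 and 608 after 24 h, 398 and 359 after 48 h, 268 and 256 after 72 h, 351 and 246 after 96 h and 687 and 758 after 7 d in DMSO. Egln3 under JNKi read 959 and 955 after 24 h, 581 and 459 after 48 h, 502 and 443 after 72 h, 494 and 446 after 96 h and 998 and 995 after 7 d. In both arms the values at 48, 72 and 96 h lay below those at 24 h and at 7 d. In DMSO the change was -0.83 at 48 h (adjusted p = 0.00085) and -1.19 at 96 h (adjusted p = 4.9e-06) against 24 h, and the rise from 96 h to 7 d was 1.29, SE 0.15, adjusted p = 1.9e-05.

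Hif1a encodes the oxygen-regulated subunit itself, which is controlled mainly as a protein. Hif1a read 5514 and 5910.5 after 24 h, 4483 and 4952 after 48 h, 4584 and 4636 after 72 h, 6678 and 6138 after 96 h and 5519 and 4354 after 7 d in DMSO. Hif1a under JNKi read 5017 and 5293 after 24 h, 4786 and 4580.2 after 48 h, 4917 and 4685 after 72 h, 6547 and 6312 after 96 h and 4661 and 4386 after 7 d. Its highest values stood at 96 h in both arms. It rose from 72 h to 96 h by 0.47 (SE 0.09, adjusted p = 0.001), and against 24 h it was 0.17 at 96 h (adjusted p = 0.14) and -0.22 at 7 d (adjusted p = 0.055), neither past the test. Egln1, the main hydroxylase acting on it, ranged from 2570 to 3277 in DMSO and from 2465 to 3271 in JNKi.

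Bnip3 and Bnip3l mark mitochondria for removal. Bnip3 read 201 and 219 after 24 h, 169 and 209 after 48 h, 182 and 178 after 72 h, 172 and 152 after 96 h and 185 and 242 after 7 d in DMSO. Bnip3 under JNKi read 235 and 319.5 after 24 h, 187 and 208 after 48 h, 216 and 191 after 72 h, 165 and 181 after 96 h and 241 and 276 after 7 d. Its change at 96 h was -0.38 (adjusted p = 0.074). Bnip3l read 2922 and 3174 after 24 h, 2560.2 and 2889 after 48 h, 2573 and 2240.4 after 72 h, 2712 and 2767 after 96 h and 2792 and 2946 after 7 d in DMSO. Bnip3l under JNKi read 3059.6 and 3326 after 24 h, 2924 and 2821 after 48 h, 2806 and 2467 after 72 h, 2955 and 3093 after 96 h and 3327 and 3071 after 7 d. Its change at 96 h was -0.15 (adjusted p = 0.15). Car9, the carbonic anhydrase of hypoxic cell surfaces, was read at low level, so that a change could not be seen with precision. Car9 read 19.7 and 14.4 after 24 h, 24.5 and 12.8 after 48 h, 13.3 and 21.1 after 72 h, 15.4 and 15.1 after 96 h and 11.8 and 14.9 after 7 d in DMSO. Car9 under JNKi read 24.7 and 11.2 after 24 h, 10.4 and 11.2 after 48 h, 13 and 11.3 after 72 h, 14.5 and 21.4 after 96 h and 19.4 and 14.7 after 7 d. The change at 96 h was -0.14, SE 0.41, adjusted p = 0.78.

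**Figure D3:**
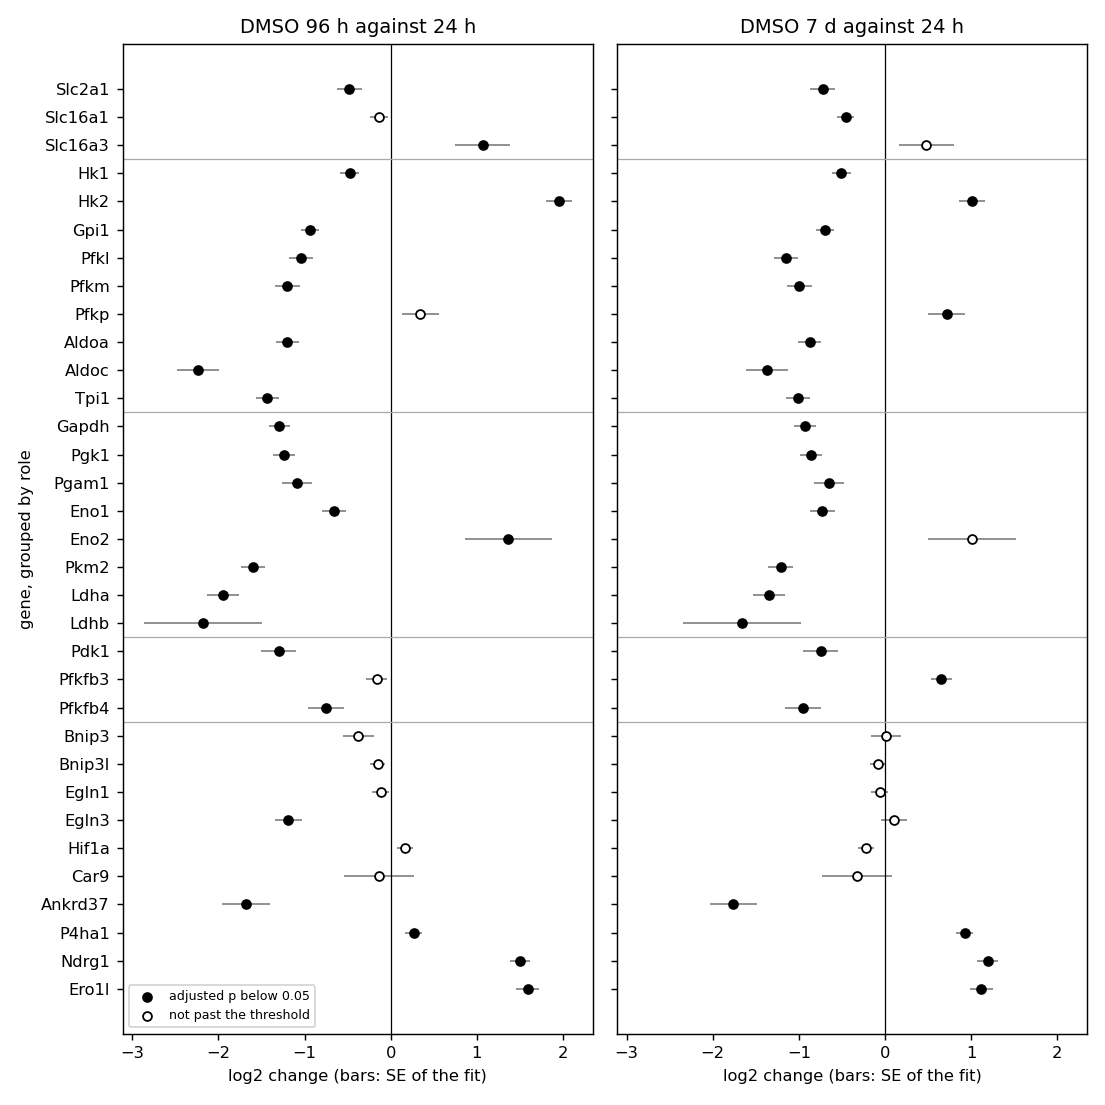
Log2 change of each of 33 members in DMSO at 96 h (left) and 7 d (right) against 24 h, with the SE of the fit as bars, ordered by role from transport (top) to hypoxia response (bottom). Filled points have an adjusted p below 0.05: 19 members lie below 0 and 6 above in each panel.

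Step by step, the members moved at some times and not at others. From 24 h to 48 h in DMSO 9 fell and 4 rose, with 13.7% of all genes tested lower and 14.7% higher; these counts were 3 lower without the second library at 24 h or the first at 48 h, 4 lower without the second at 48 h, and 2 higher without either library at 24 h or the second at 48 h. Ndrg1 and P4ha1, higher, and Slc16a1 and Egln3, lower, kept their calls whichever library was left out. From 48 h to 72 h no member passed limma's test, where 0.0576% of all genes were lower and 0.201% higher, although 11 members, and 14.4% of all genes, had an unadjusted p below 0.05; edgeR and DESeq2 on reads recovered from the table also called 0.

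From 72 h to 96 h 16 members fell and 6 rose, with 20.8% and 15.8% of all genes. Without the first DMSO library at 72 h the number lower was 10. Hk1, Gpi1, Pfkl, Pfkm, Aldoa, Pgam1, Pkm2, Ldha, Pfkfb4 and P4ha1 fell, and Hk2, Slc16a1, Hif1a, Ndrg1 and Ero1l rose, in every alternative run. From 96 h to 7 d the direction turned for many of them: 10 members rose and 5 fell, with 21.0% and 15.5% of all genes. The number higher was 3 without the second DMSO library at 96 h or the second at 7 d, and the number lower was 2 without either library at 96 h or the second at 7 d. Pfkfb3, Egln3 and P4ha1 rose and Hk2 fell in every alternative run. Neighbouring steps share the libraries of the time between them.

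The rest of central carbon metabolism was described from lists outside the 34 symbols, whose counts stand beside the 30.5% of all genes tested that were lower and the 32.7% that were higher at 96 h, and the 28.0% and 32.0% at 7 d. The list for the tricarboxylic acid cycle also held the cytosolic forms Aco1, Idh1 and Mdh1. Of its 20 genes tested 17 fell by 96 h in DMSO and none rose, with a median change of -0.55 beside 0.07 for all genes tested. By 7 d 19 of 20 had fallen. At 96 h Idh1, the cytosolic isocitrate dehydrogenase, changed by -2.90 (adjusted p = 1.1e-09) and Idh2, its mitochondrial form, by -1.23 (adjusted p = 1.4e-07). In the pentose phosphate pathway, which branches off after hexokinase, 7 of 10 fell and 1 rose, with a median of -0.83. Its dehydrogenase Pgd changed by -1.64 (adjusted p = 2.2e-09) and its transketolase Tkt by -1.41 (adjusted p = 1.2e-08), and Rpia, the ribose phosphate isomerase, rose by 0.97 (adjusted p = 0.00018). Among pyruvate dehydrogenase and its kinases and phosphatases 7 of 11 fell and none rose, among them the kinase Pdk3 (-1.41, adjusted p = 7.3e-07) and the pyruvate carrier Brp44l (-0.76, adjusted p = 3.1e-05). All adjusted p-values are limma's.

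Of further isozymes and transporters of glycolysis 6 of 20 were lower and 3 higher at 96 h, the first a share near the 30.5% of all genes, with a median of -0.17. Bpgm, which makes 2,3-bisphosphoglycerate, changed by -1.72 (adjusted p = 9.8e-07) and Adpgk, an ADP-dependent glucokinase, by 1.21 (adjusted p = 8.0e-08). Gapdhs, the sperm form, was higher (1.80, adjusted p = 0.0096), lost without the second DMSO library at 24 h, at 0.91 (adjusted p = 0.2), or the first at 96 h, at 1.53 (adjusted p = 0.071).

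Of 5 gluconeogenesis genes tested 2 rose, Pck2 (1.59, adjusted p = 4.8e-06) and G6pc3 (0.34, adjusted p = 0.032), and Fbp2 fell (-1.85, adjusted p = 0.0012), with a median of 0.15. The G6pc3 call was lost without either DMSO library at 24 h, at 0.32 (adjusted p = 0.11) and 0.36 (adjusted p = 0.076), or the first at 96 h, at 0.13 (adjusted p = 0.43).

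Of 28 other genes known to be induced by low oxygen 9 rose and 11 fell by 96 h, where 32.7% of all genes were higher and 30.5% lower, with a median of -0.02; the share that rose is near that of all genes. The angiogenic factor Vegfa rose by 1.98 (adjusted p = 1.7e-07), while its relative Pgf changed by -1.67 (adjusted p = 6.3e-05) and the transferrin receptor Tfrc by -1.47 (adjusted p = 1.8e-08). Stc2 was higher (2.09, adjusted p = 0.013), a call lost without the second DMSO library at 24 h, at 1.89 (adjusted p = 0.073), or the first at 96 h, at 1.67 (adjusted p = 0.1). Of 13 HIF subunits and regulators 4 rose and 3 fell, near the same shares of all genes, with a median of 0.19: the ubiquitin ligase Siah2 (0.68, adjusted p = 0.0012) and the coactivator Ep300 (0.64, adjusted p = 7.7e-06) were higher, and Epas1, which encodes HIF-2 alpha (-1.37, adjusted p = 3.5e-06), and the hydroxylase Egln2 (-0.65, adjusted p = 3.2e-05) lower. Of 5 other genes of the collagen prolyl and lysyl hydroxylase enzymes 4 rose and 1 fell, with a median of 0.54. P4ha2 changed by 0.70 (adjusted p = 2.1e-05) and Plod3 by 0.64 (adjusted p = 1.0e-06). The gene that fell was P4hb, a subunit that is not itself a hydroxylase (-0.45, adjusted p = 0.00055).

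Few of the members differed past the test between the JNKi and DMSO arms. With JNKi against DMSO, no member passed limma's test at 24 h or 48 h, where 0.0% of all genes tested were higher and 0.0% lower. None passed at 72 h, where 0.0432% of all genes were higher and 0.0288% lower, or at 96 h, where 0.0072% were higher and 0.0% lower. At an unadjusted p below 0.05 there were 4, 1, 3 and 2 members at these 4 times, beside 4.39%, 3.75%, 8.1% and 4.87% of all genes. On recovered reads edgeR called 1 member higher at 72 h and DESeq2 1 at 72 h and 1 at 96 h, and both called 0 at 24 h and 48 h. With the replicate number as a block within each time, some members passed at 72 h and at 96 h, as given below. More members passed with that block than without it at 7 d and over the mean of the 5 times. At 7 d Pfkfb4 was higher and P4ha1 lower, that is 1 member each way, with 4.84% and 5.33% of all genes. Over the mean of the 5 times Egln3 and Pfkfb3 were higher and none was lower, with 2.45% and 2.32% of all genes. Among the 17 glycolytic enzymes none passed at any time or over the mean, by limma without a block, and their median JNKi effect over the 5 times was -0.03. The comparisons at 7 d include the 2 shallow libraries. Leaving both out leaves 1 library in each arm at 7 d, so the loss of a call there cannot show that they carried it.

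**Figure D4:**
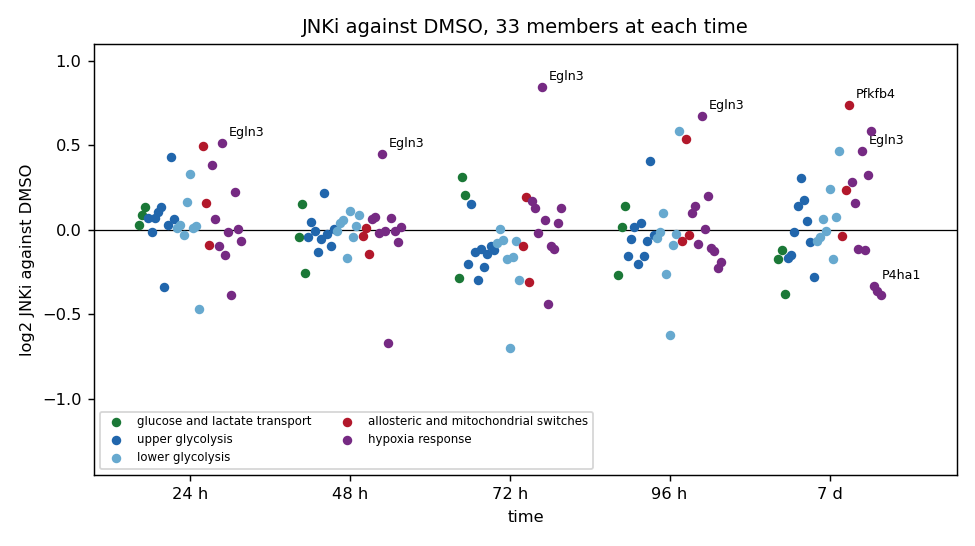
Log2 difference of JNKi from DMSO for each of 33 members at 5 times, coloured by role. Egln3 is labelled at each time and lies above 0 throughout; Pfkfb4 and P4ha1, labelled at 7 d, had an adjusted p below 0.05 there.

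Egln3 was the member with the most regular difference. Its values in both arms are given above: at each of the 5 times both JNKi libraries lay above both DMSO libraries, which held for 0.36% of all genes tested and for no other member. The differences were 0.51 after 24 h, 0.45 after 48 h, 0.85 after 72 h, 0.67 after 96 h and 0.47 after 7 d. None passed at a single time, with the lowest adjusted p at 72 h (adjusted p = 0.051, limma). The mean over the 5 times was 0.59, SE 0.07, adjusted p = 0.00018, and it kept this call whichever library was left out.

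Pfkfb3 had a mean difference of 0.23, SE 0.05, adjusted p = 0.024 over the 5 times. JNKi libraries lay above the DMSO ones without overlap at 72 h, 96 h and 7 d and overlapped them at 24 h and 48 h. The call was lost without the first DMSO library at 96 h, at 0.20 (adjusted p = 0.051), the first JNKi library at 96 h, at 0.21 (adjusted p = 0.061), or the first at 7 d, at 0.21 (adjusted p = 0.061). Without the 2 shallow libraries it was 0.23 (adjusted p = 0.066).

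Pfkfb4 at 7 d read 247 and 285 in DMSO and 460.3 and 426 in JNKi, a difference of 0.74, SE 0.21, adjusted p = 0.031. At 48 h its libraries overlapped between arms, and at 72 h both JNKi libraries lay below both DMSO ones. The 7 d call was lost without the first DMSO library, at 0.64 (adjusted p = 0.21), or either JNKi library, at 0.68 (adjusted p = 0.18) and 0.79 (adjusted p = 0.1). P4ha1 at 7 d read 3624 and 4171 in DMSO and 2906 and 3269 in JNKi, a difference of -0.34, SE 0.10, adjusted p = 0.039. Its call was lost without the first DMSO library at 7 d, at -0.44 (adjusted p = 0.054), the second, at -0.23 (adjusted p = 0.21), the first JNKi library, at -0.25 (adjusted p = 0.29), the second, at -0.42 (adjusted p = 0.06), or either DMSO library at 48 h, at -0.34 (adjusted p = 0.051). Without the 2 shallow libraries, which leaves a single library in each arm at 7 d, Pfkfb4 was at 0.58 and P4ha1 at -0.35.

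**Figure D5:**
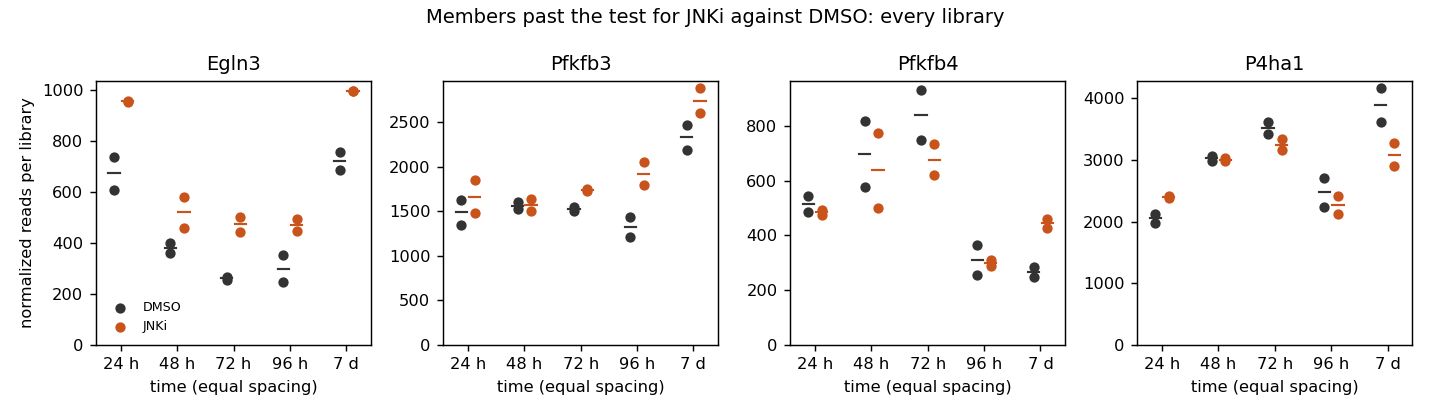
Normalized reads (from 0) of Egln3, Pfkfb3, Pfkfb4 and P4ha1 in every library of DMSO and JNKi at 5 times, spaced equally; points are libraries and bars the mean of 2. Egln3 is higher with JNKi at all 5 times, Pfkfb4 at 7 d (460.3 and 426 against 247 and 285), and P4ha1 is lower with JNKi at 7 d.

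The change over the week was also measured within the JNKi arm, and the difference between the arms was tested directly. From 24 h to 7 d in JNKi 17 members fell and 6 rose, with 26.3% and 31.7% of all genes, beside 19 and 6 in DMSO. Ldha changed by -1.29, Pkm2 by -1.40 and Hk2 by 0.87 in JNKi. The change in JNKi minus that in DMSO passed for P4ha1 only (-0.56, SE 0.14, adjusted p = 0.046), with 1.3% of all genes lower and 0.799% higher. P4ha1 had risen by 0.92 in DMSO and by 0.36 in JNKi, the latter 0.28 (adjusted p = 0.068) without the second JNKi library at 7 d. The call of the difference was lost without any 1 of 17 of the 20 libraries, with values from -0.66 to -0.46 and adjusted p-values up to 0.21; it stayed without either DMSO library at 96 h or the first at 7 d. Ankrd37 had a difference of 0.97 that did not pass (adjusted p = 0.21, limma). No member passed limma's F-test for a JNKi effect that differs between times, which 0.324% of all genes passed. An unadjusted p below 0.05 was seen for 2 members and 10.4% of all genes. Tests of the same question in edgeR and DESeq2 called 0, but a block for the replicate number within each time called 2, as given below.

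In the lists outside the 34 symbols counts of JNKi against DMSO at 7 d stand beside 4.84% of all genes higher and 5.33% lower. Of 5 other genes of collagen hydroxylase enzymes 2 were lower and none higher. Of 20 further glycolysis isozymes and transporters 3 were higher and 1 lower. Of 5 gluconeogenesis genes 1 was higher, and of 11 genes of pyruvate dehydrogenase and its regulators 1 was higher. There were also 4 of 28 other hypoxia-induced genes higher and 4 lower, 3 of 10 pentose phosphate genes higher and 1 lower, and 1 of 20 tricarboxylic acid cycle genes higher and 2 lower. None of 13 HIF subunits and regulators passed at 7 d or over the mean of 5 times, by limma without a block. Named after their values were seen, Slc2a4, the insulin-responsive glucose carrier, and Plod1, a lysyl hydroxylase of collagen, kept their calls over the mean of 5 times in every alternative that tested them. Slc2a4 was higher (log2 1.23, SE 0.20, adjusted p = 0.0025) and Plod1 lower (log2 -0.26, SE 0.04, adjusted p = 0.00058).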

How the data were processed

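The submitters' processing notes name TopHat, HTSeq and DESeq and the genome mm9, without versions. Values of the 20 libraries are a signal, the normalized read count of each gene, which the authors deposited to 1 decimal. In a library these are multiples of what 1 read is worth, and reads were recovered by division; at least 99.97% of values came within 0.1 of a whole number. Whether counting used strand is not given in the sources used here. The other 15 samples, a TGF-β time course, have 15 columns that were not used: in 95.7% of the 11405 rows reaching 100, neighbouring columns jumped both from below 10 to 100 or more and the reverse.

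Deposited values plus 1 were put on the log2 scale and tested in limma 3.58.1 under R 4.3.3, two-sided, using a variance trend and a mean for each of 10 groups over all 20 libraries, for 13896 genes with a group mean of at least 10. The script was tested on simulated counts. Alternatives were edgeR 4.0.16 and DESeq2 1.42.0 on recovered reads, pseudocounts of 0.5 and 8, filters, TMM and upper quartile scaling, variance settings, replicate blocks, 2 groups alone, and each library left out in turn. Members, gene lists and tests were chosen with earlier results of these data known.

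Every library's value is given for 20 members picked by name and for any other past the test with a log2 change of at least 1 in a main comparison. From each gene list at most the 2 largest changes past the test in each direction are named in a comparison. Promoters come from RefSeq on GRCm38.p6 and were matched by gene symbol.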

Additional observations from a re-analysis of the deposited data

Results flagged for a closer look

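The change of P4ha1, the collagen prolyl hydroxylase subunit, from 24 h to 7 d differed between the arms in a test of the difference itself. The change in JNKi minus that in DMSO was -0.56 on the log2 scale (SE 0.14, adjusted p = 0.046, limma). In DMSO P4ha1 read 2129 and 1972 normalized reads at 24 h and 3624 and 4171 at 7 d. In JNKi it read 2387 and 2409 at 24 h and 2906 and 3269 at 7 d, so that the JNKi libraries lay above the DMSO ones at 24 h and below them at 7 d. Without the 2 shallow libraries at 7 d, which leaves a single library in each arm there, the difference was -0.58.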

How the results depend on the processing

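Of 128 differences of single members past the test, 85 stayed past it in every alternative that tested the gene, 43 were lost in at least 1 and 0 changed sign. Alternatives in which the filter removed the gene were not counted: Ldhb was tested in 19 of the runs with 1 library left out. The member counts against 24 h at 96 h and 7 d, and those from 24 h to 7 d in JNKi, stayed within 1.5 times in every alternative, with 4 to 6 higher and 18 to 19 lower at 96 h, 5 to 6 and 17 to 19 at 7 d, and 5 to 6 and 15 to 18 in JNKi when each library was left out in turn. The step counts moved further. Counts at 48 h against 24 h ran from 2 to 4 higher, with 2 without either DMSO library at 24 h or the second at 48 h, and from 3 to 10 lower, with 3 without the second library at 24 h or the first at 48 h and 4 without the second at 48 h. From 72 h to 96 h they ran from 5 to 6 higher and 10 to 16 lower, with 10 without the first DMSO library at 72 h. From 96 h to 7 d they ran from 3 to 14 higher, with 3 without the second DMSO library at 96 h or at 7 d, and from 2 to 5 lower, with 2 without either at 96 h or the second at 7 d; the 2 groups alone gave 4 and 1. Upper quartile rescaling moved the median of all genes from 0.06 to 0.17 for 7 d against 24 h in JNKi.

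JNKi counts were small and depended on the settings; the cause was not tested. At 7 d, 1 member was higher and 1 lower. The higher count was 0 without the trend and with the 2 shallow libraries left out, an alternative chosen after the depths were seen, and 2 by DESeq2 or in the 2 groups alone. The lower count was 0 with upper quartile rescaling, without the trend, in the 2 groups alone and without the 2 shallow libraries, 2 with a pseudocount of 8 or by edgeR and 3 by DESeq2. With 1 library left out they ran from 0 to 3 higher and from 0 to 2 lower: the higher count was 0 without the first DMSO or either JNKi library at 7 d, 2 without either DMSO library at 96 h and 3 without the second DMSO library at 7 d, and the lower count was 0 without either DMSO library at 48 h, the first DMSO or either JNKi library at 7 d, and 2 without the second DMSO library at 7 d. At 72 h the higher count was 0, and 1 with robust variances, with the filter raised to a mean of 50, by edgeR or by DESeq2; it ran from 0 to 1 with 1 library left out, and was 1 without any 1 DMSO library at 24 h or 96 h or JNKi library at 48 h. At 96 h DESeq2 gave 1 higher. Over the 5 times 2 members were higher, and 1 without the trend or without the 2 shallow libraries; the count ran from 1 to 2 higher, with 1 without the first DMSO or JNKi library at 96 h or the first JNKi library at 7 d, and from 0 to 1 lower, with 1 without the second DMSO library at 7 d. The 1 member whose change differed between the arms ran from 0 to 1, and was 0 without the filter, with upper quartile rescaling, without the trend, without the 2 shallow libraries and by edgeR.

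The replicate number was also fitted as a block. Same-numbered libraries of the 2 arms deviated together at 24, 48, 72 and 96 h (correlations 0.26, 0.21, 0.40 and 0.21) and not at 7 d (0.04). A correlation over 0.1 at every time was needed to treat the numbers as pairs, which 4 of the 5 times met, so the block was kept as an alternative. A block within each time gave 2 higher and 1 lower at 72 h, 2 higher at 96 h, 3 higher and 4 lower at 7 d, 4 higher and 3 lower over the 5 times, and 2 past the test for a JNKi effect that differs between times. A block over all times gave 1 higher at 72 h and 2 higher at 7 d. Depth limits Ldhb and Eno2, with fewer than 10 reads in several libraries.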

Other observations

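At 7 d in DMSO the further glycolysis isozymes and transporters, outside the 34 symbols, gave 8 of 20 genes higher and 5 lower than at 24 h, with a median change of -0.01 beside 0.06 for all genes tested, of which 32.0% were higher and 28.0% lower. Slc2a3, the high-affinity glucose carrier GLUT3, read 0 and 1.4 normalized reads in DMSO at 24 h, at most 1.9 in any DMSO library to 96 h, and 35.3 and 20.3 at 7 d, where the JNKi libraries read 33.3 and 36.4. The difference from 24 h in DMSO passed the test (adjusted p = 3.8e-05, limma). Within DMSO the Slc2a3 mean reached the filter of 10 only at 7 d, so this call is in part set by the filter. Slc2a6, another glucose carrier, read 29.5 and 38.9 at 24 h and 252.5 and 208.2 at 7 d in DMSO, a log2 change of 2.72, SE 0.27, adjusted p = 4.7e-07. The carrier Slc2a1 had fallen over the same time (-0.72), so that Slc2a1 and Slc2a6 moved in opposite ways. The sum over 6 leukocyte markers also went from 14.4 and 15.4 to 64.9 and 70.7 in DMSO over these times, and its part in the Slc2a3 and Slc2a6 values was not tested. Pklr, the liver pyruvate kinase, and Hkdc1, a hexokinase-like gene, were lower (-1.21, adjusted p = 3.0e-05, and -1.13, adjusted p = 0.00075).

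Of 13 HIF subunits and regulators 3 were higher and 2 lower at 7 d than at 24 h in DMSO, beside 32.0% and 28.0% of all genes. Arnt2, a partner of the HIF alpha proteins, had a log2 change of 2.18, SE 0.37, adjusted p = 0.00011, while Epas1, which encodes HIF-2 alpha, had one of -1.07 (adjusted p = 6.5e-05, limma).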
